A study of Danaus plexippus with 48 samples.

Results

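The brains of migratory monarch butterflies (Danaus plexippus) were compared between pools labelled female and pools labelled male. The comparison used the 16 Migrant libraries of a 48-library RNA-seq series. Of these, 8 were labelled female (replicate 1) and 8 male (replicate 2), and members were taken by those labels alone, 1 of each at zeitgeber times (ZT, hours after lights on) 1, 4, 7, 10, 13, 16, 19 and 22. Both labels came from wild-caught migrants, with no allele or agent named, that were kept for at least 7 days at 21 °C and 70% humidity under 11 h of light and 13 h of dark. Each library was made from a pool of 3 brains with the retinal pigment layer taken off, and p-values therefore measure the spread between single pools. The 16 LP libraries (15 h of light, 9 h of dark) and the 16 SP libraries (10 h of light, 14 h of dark) also held 8 pools of each label. They came from laboratory-raised butterflies and were made with another library kit, so state, rearing and kit cannot be told apart between Migrant and the other groups.

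In butterflies the female is the heterogametic sex, with a Z and a W chromosome, and the male carries a pair of Z chromosomes. A gene on the W can be transcribed in females alone, and Z-linked genes are present in females in a single copy, which dosage compensation can offset. In the monarch the Z is a fusion of the ancestral Z with a former autosome. The deposited files give scaffolds but no chromosomes, so no scaffold is assigned to the Z or W here. The files carry gene identifiers without names and none matched the reference table, so no function is given for any gene, and markers of brain cell types were not analysed here.

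About 5754000 to 7708000 reads, to 4 digits, fell in genes per Migrant library. A pair of libraries stood apart. The ZT22 female library had a median correlation of 0.862 with the other 15 Migrant libraries over log2(FPKM + 1), and the ZT10 male library 0.948, where the other 14 had 0.968 to 0.974. FPKM, the deposited unit, is a fragment count scaled to the transcript's length and to the library's mapped fragments. The ZT22 female library had 7342000 reads in genes and the ZT10 male library 5754000, the fewest of the 16. Summed over genes, FPKM came to 845749 in the ZT22 female library, against 1501420 to 1890623 in the other female libraries. Male libraries had 1101290 to 1548121, and the female sum was the larger in every pair but ZT22. Of 25 genes listed at 0 in 1 Migrant library while at 10 FPKM or more in the other 15, 18 were at 0 in the ZT22 female library and none in the ZT10 male library. The numbers of genes and scaffolds called between the labels are therefore given for 8 pairs and for the 6 pairs without ZT10 and ZT22. Several single genes are given for 8 pairs alone, and the LP and SP comparisons of called genes use the 6-pair lists.

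**Figure D1:**
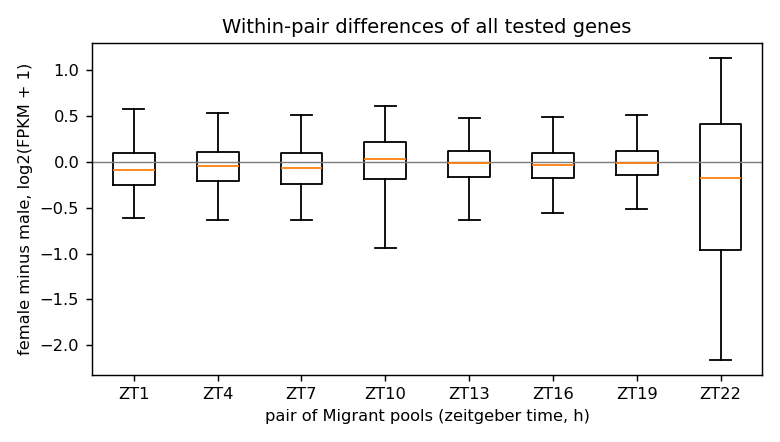
Female minus male difference in log2(FPKM + 1) of 11513 genes in each Migrant pair; the line is the median, the box the middle 50% and the whiskers reach the 5th and 95th percentiles. The ZT22 box spans from -0.96 to 0.41, and the other 7 boxes lie between -0.26 and 0.21.

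Within pairs, most genes differed little between the labels. In the 6 ordinary pairs the female minus male differences had an SD over genes of 0.455 to 0.494, and 3.14% to 3.88% of genes differed by 2-fold or more on the log2(FPKM + 1) scale. The ZT10 pair had an SD of 0.671 and 6.36% of such genes. The ZT22 pair had an SD of 1.08 and 31.3%. In the plot of within-pair differences, the ZT22 pair is the wide one. In the 6 ordinary pairs, 35.1% to 47.2% of genes were higher in the female library. The median standard error of a gene's female minus male difference was 0.132 with 8 pairs and 0.0775 with 6.

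With all 8 pairs, a handful of genes separated the labels. Limma, fitted to 11513 genes of mean 0.5 FPKM or more with the time as a block, called 14 genes at a Benjamini-Hochberg adjusted p under 0.05 (0.122% of those tested). Of these, 4 were higher in females (0.0347%) and 10 in males (0.0869%), with log2 differences of 0.76 to 2.94 in the first set and -2.33 to -0.51 in the second. Every one of the 14 had 1 sign in all 8 pairs, and the female and male libraries did not overlap for all 4 and for 7 of the 10. Over all genes, the groups did not overlap with females higher in 0.0608% and with males higher in 0.391%. In a fit to all 48 libraries the count was 104 (0.903%). It was 116 without the ZT22 pair, 7 without ZT4, 8 without ZT7, ZT10 or ZT19 and 9 without ZT13 or ZT16. After scaling libraries by median ratios it was 9, with 4 higher in females and 5 in males.

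Several genes were found under a single label. Taking a gene as limited to 1 label when every library of the other label was under 0.1 FPKM, when its own libraries were all above that and when they averaged 1 FPKM or more, 3 genes were limited to females (0.0261% of those tested) and 2 to males (0.0174%). Since the labels chose these 5 genes, they are no check of the labels.

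DPOGS213736 (scaffold DPSCF300619, 2733 to 6137) was the highest of the female-limited genes. It had 3.36 FPKM at the lowest, 7.37 at the median and 8.34 at the highest in the 8 female libraries, against 0 in 7 of 8 male libraries and 0.0397 FPKM in the ZT16 male library. The lowest female value was that of ZT22, the library that stands apart, and it was still far above every male value. Its limma adjusted p was 1.9e-05 with 8 pairs and 1.7e-05 with 6 pairs, and it was called under each of 19 alternative settings.

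DPOGS200003 (DPSCF300466, 57981 to 58372), a short gene, was listed at 1.26 to 2.96 FPKM (median 2.19) in female libraries, against 0 in all 8 male libraries. These levels rest on a mean of only 6.37 reads per female library. The limma adjusted p was 0.000672 with 8 pairs. DPOGS211681 (DPSCF300151, 414398 to 415620), the third female-limited gene, is named after its values were seen, as are DPOGS203943, DPOGS201355, DPOGS200090, DPOGS207001, DPOGS207125, DPOGS203381, DPOGS212719, DPOGS212720 and DPOGS203394 in the comparison of the labels. It had 0.928 to 4.36 FPKM (median 1.86) in female libraries, against 0 in 5 male libraries and at most 0.0662 FPKM in the other 3 (limma adjusted p 0.00854 with 8 pairs).

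DPOGS212555 (DPSCF300075, 514515 to 516817) was the highest of the male-limited genes. It was at 0 in all 8 female libraries, against 2.67 FPKM at the lowest, 3.89 at the median and 6.40 at the highest in male libraries, where it rested on a mean of 10.0 reads. Its limma adjusted p was 0.000198 with 8 pairs and 0.00115 with 6. DPOGS203388 (DPSCF300003, 598823 to 600070) was at 0 in 7 female libraries and at 0.0678 FPKM at ZT7, against 1.12 to 3.50 FPKM (median 2.25) in male libraries (limma adjusted p 0.000808 with 8 pairs). The labels did not overlap for either gene at any time.

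**Figure D2:**
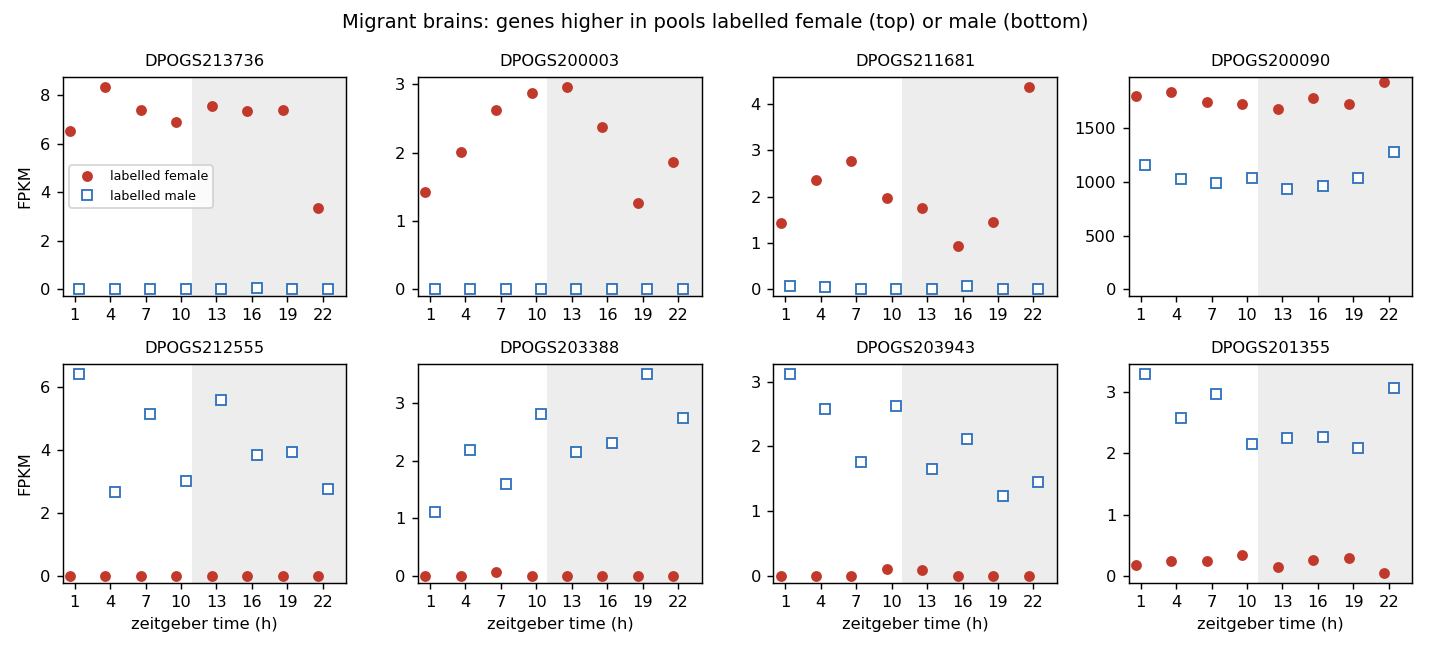
FPKM by zeitgeber time (grey, dark) of 8 genes in Migrant libraries labelled female (filled circles) or male (open squares), 1 library per label and time. In the top row each female library lies above every male library, and in the bottom row each male library lies above every female library.

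A pair of further genes were strongly but less completely limited to males. DPOGS203943 (DPSCF300005, 68288 to 69431) was at 0 in 6 female libraries and at most 0.111 FPKM in the other 2, against 1.23 to 3.12 FPKM (median 1.94) in male libraries (limma adjusted p 0.000808 with 8 pairs). DPOGS201355 (DPSCF300083, 591714 to 610922) was read in every library. It had 0.0589 to 0.341 FPKM (median 0.251) in females, against 2.09 to 3.30 FPKM (median 2.42) in males. Its female minus male difference was -1.54 ± 0.12 (SE, 8 pairs, limma adjusted p 0.000672), and it was male-higher in 8 of 8 pairs.

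DPOGS200090 (DPSCF300044, 14967 to 33807), an abundant gene, was higher in females. It had 1679 FPKM at the lowest, 1758 at the median and 1926 at the highest in female libraries, against 929.8, 1029 and 1273 FPKM in male libraries. The lowest female library was above the highest male library. The difference was 0.76 ± 0.06 (SE, limma adjusted p 0.000672) with 8 pairs and 0.79 ± 0.05 with 6 pairs, where the adjusted p was 0.00122. In the 48-library fit it was not called (limma adjusted p 0.1002). In the plot of levels by time, the gap between the labels is of similar width throughout the day and the night.

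DPOGS207001 (DPSCF300001, 1002044 to 1014359) was higher in males. Female libraries had 15.2 to 38.2 FPKM (median 20.04), against 30.4 to 44.8 FPKM (median 37.4) in male libraries. The highest female value was that of ZT22, and the other 7 female libraries, up to 23.0 FPKM, lay below every male library. The difference was -0.82 ± 0.10 (SE, limma adjusted p 0.0137) with 8 pairs and -0.93 ± 0.05 with 6 pairs (limma adjusted p 0.00102).

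Leaving out the ZT10 and ZT22 pairs, with 12 libraries remaining, raised the number of calls. Limma then called 117 of the 11513 genes (1.02%), 21 of them higher in females (0.182%) and 96 higher in males (0.834%), and all 14 genes of the 8-pair fit were among them. Leaving out the ZT22 pair alone gave 116 calls, and leaving out the ZT10 pair alone gave 8. At an unadjusted p under 0.05 there were 2056 genes with 6 pairs, against 762 with 8. The differences were small: the median was 0.43 in the female-higher genes (range 0.23 to 3.06) and -0.40 in the male-higher genes (range -2.45 to -0.22), beside -0.05 over all genes. Of the 21, 12 lay under 1.5-fold and 3 at 2-fold or more, and of the 96, 72 lay under 1.5-fold and 6 at 2-fold or more. The median level over the 16 libraries was 21.3 FPKM in the female-higher and 36.6 FPKM in the male-higher genes, against 16.3 FPKM over all genes. Leaving out 1 more pair reduced the count to 31 (ZT19), 19 (ZT1 or ZT13), 14 (ZT4) or 8 (ZT7 or ZT16). With median-ratio scaling 72 genes were called, 28 female-higher and 44 male-higher, so the male-higher share was 61.1%, against 82.1% as deposited.

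**Figure D3:**
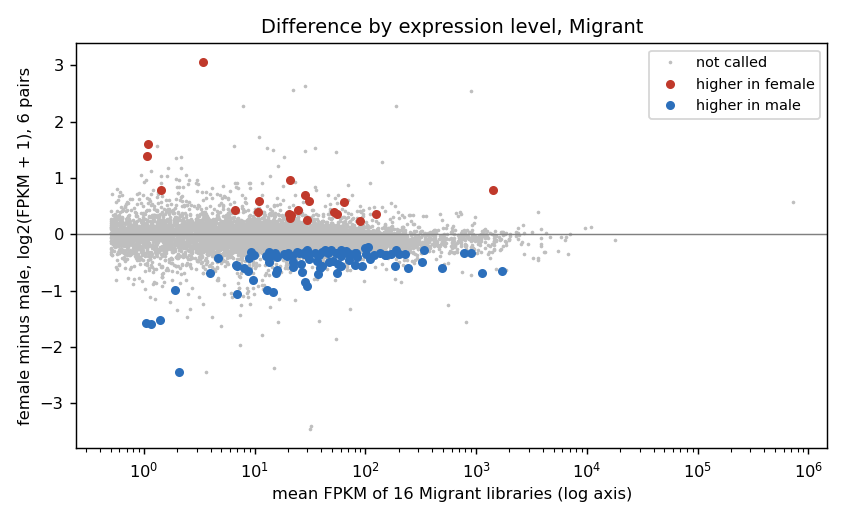
Female minus male difference over 6 pairs, in log2(FPKM + 1), against the mean FPKM of the 16 Migrant libraries (log axis); each point is a gene. The 21 genes called higher in females are red and the 96 called higher in males blue, and the called genes span low to high levels.

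The 2 pairs set aside were not used by the 6-pair fit, and their signs matched it in part. In the ZT10 pair, 20 of the 21 female-higher genes were again higher in the female library, where 53.8% of all genes were. Of the 96 male-higher genes, 75 were higher in the male library there, where 45.4% of all genes were. In the ZT22 pair the counts were 8 of 21, where 41.8% of all genes were female-higher, and 58 of 96, where 57.2% were male-higher, shares close to those over all genes. Across all 8 pairs, 8 of the 21 and 48 of the 96 kept their sign, against 0.382% and 2.34% of all genes with that sign throughout, although 6 of the 8 pairs had chosen these genes.

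DPOGS207125 (DPSCF300001, 3448363 to 3449516) and DPOGS203381 (DPSCF300003, 479017 to 484928) were called with 6 pairs and not with 8. DPOGS207125 had 36.2 to 40.2 FPKM in 7 of the 8 female libraries and 9.44 FPKM in the ZT22 female library, against 20.8 to 23.5 FPKM in male libraries. With 6 pairs its difference was 0.70 ± 0.04 (SE, limma adjusted p 0.00102), and with 8 pairs 0.49 ± 0.20 (limma adjusted p 0.731). DPOGS203381 had 35.0 to 44.2 FPKM in 7 female libraries and 21.1 FPKM at ZT22, against 19.7 to 29.0 FPKM in male libraries. Its difference was 0.59 ± 0.05 with 6 pairs (SE, limma adjusted p 0.00541) and 0.53 ± 0.14 with 8 pairs (limma adjusted p 0.475).

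The 96 male-higher genes lay on 41 scaffolds and the 21 female-higher genes on 16, of 770 scaffolds with a tested gene. The 3 scaffolds with the most male-higher genes, picked for those counts and so described with no test, held 41 of the 96 (42.7%). They held 520 of all tested genes (4.52%). Over all tested genes, 0.834% were male-higher and 0.182% female-higher. On DPSCF300012, 11 of 69 tested genes were male-higher (15.9%) and 1 female-higher. On DPSCF300003 it was 8 of 97 (8.25%), with 3 female-higher, and on DPSCF300001 22 of 354 (6.21%), with 4 female-higher.

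DPOGS212719 (421442 to 424926) and DPOGS212720 (417639 to 420285) are neighbours on DPSCF300012. DPOGS212719 had 4.95 to 9.98 FPKM (median 6.69) in female libraries, against 10.3 to 15.0 FPKM (median 12.4) in male libraries. DPOGS212720 had 7.53 to 14.8 FPKM (median 9.31) in female libraries, against 16.2 to 25.8 FPKM (median 18.4) in male libraries. For both genes ZT22 gave the highest female value, and still the labels did not overlap. The differences with 8 pairs were -0.77 ± 0.10 (SE, limma adjusted p 0.0183) and -0.90 ± 0.13 (SE, limma adjusted p 0.0415). DPOGS203394, on DPSCF300003 (879599 to 889556), likewise had 5.12 to 7.64 FPKM (median 6.08) in female libraries, against 9.03 to 10.8 FPKM (median 10.1) in male libraries, a difference of -0.62 ± 0.08 (SE, 8 pairs, limma adjusted p 0.0183). The neighbours do not overlap by their deposited positions, and whether the authors' counting used strand is not stated.

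Whole scaffolds were then compared, over the 293 scaffolds that held 10 or more tested genes (10313 genes). With the median level of a scaffold's genes in each library, centred on the library's own median, limma called none (0%) with 8 or with 6 pairs. Before adjustment, 12 scaffolds had a p under 0.05 with 8 pairs and 43 with 6, and adjusted values were at least 0.938 and 0.161. In a measure added after these results were seen, each gene's own within-pair difference was taken before the median over the scaffold. Limma then called 2 scaffolds (0.683%) with 6 pairs, both higher in males, and none with 8 pairs (7 with a raw p under 0.05, adjusted values at least 0.134).

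DPSCF300068 (50 tested genes) differed by -0.11 ± 0.02 (SE, 6 pairs, limma adjusted p 0.00969). Its median was below that of all genes in 7 pairs, from -0.15 to -0.07, and above it, at 0.32, in the ZT22 pair. DPSCF300012 (69 genes) differed by -0.14 ± 0.02 (SE, limma adjusted p 0.0138), and it was below in all 8 pairs, from -0.25 to -0.07. Over 8 pairs it gave -0.13 ± 0.03 (limma adjusted p 0.134). DPSCF300001 was below in all 8 pairs too, from -0.15 to -0.03, and its difference of -0.07 ± 0.02 over 6 pairs did not pass (limma adjusted p 0.0703). DPSCF300012 and DPSCF300001 had been picked for male-higher genes called from 6 of these 8 pairs. Their medians below 0 in those pairs are therefore no separate support, and the share of all scaffolds below in every pair is not given here. In the plot of scaffold medians, the ZT22 points lie far from the others on several scaffolds, among them DPSCF300005 and DPSCF300068. In bulk brain tissue, fewer cells of a type and less RNA per cell cannot be told apart.

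**Figure D4:**
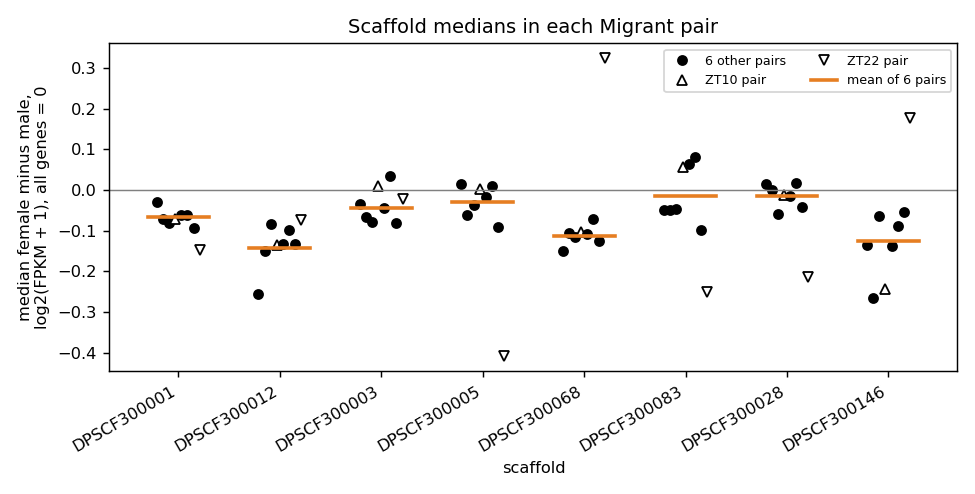
Median female minus male difference, in log2(FPKM + 1) with the median of all genes at 0, of the 8 scaffolds with 3 or more male-higher genes; each point is a Migrant pair in order of time, and bars are the mean of 6 pairs. DPSCF300012 and DPSCF300001 lie below 0 in every pair, and DPSCF300068 in every pair but ZT22. The male-higher genes were called from 6 of these pairs, so the choice of scaffolds favours points below 0.

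The female minus male difference did not pass a test for dependence on time in any gene. The difference in the 4 pairs taken in light was set against that in the 4 pairs taken in dark. Limma called 0 of 11513 genes, with 273 below 0.05 before adjustment and no adjusted p under 0.816. A 24 h cosine and sine of the difference gave 0 calls as well, with 260 genes below 0.05 before adjustment and no adjusted p under 0.918. There was 1 pool per label and time.

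The LP libraries, which share none of these samples, gave the same direction for most of the called genes. In LP as in Migrant, every pool labelled female is replicate 1 and every pool labelled male replicate 2. Label and replicate number therefore cannot be told apart within these groups or by comparing them. Fitted alone, LP had 1956 calls (17%), with 926 higher in females (8.04%) and 1030 in males (8.95%). Of the 21 genes higher in Migrant females with 6 pairs, 20 were higher in LP females and 16 (76.2%) were called so. None was called the other way. Of the 96 genes higher in Migrant males, 88 were higher in LP males and 63 (65.6%) were called so, while 1 was called the other way. Over all genes, 49.8% were higher in LP females and 50% in LP males. The median LP difference was 0.37 over the 21 genes and -0.26 over the 96. Those 63 were 6.12% of all genes called higher in LP males. The median standard error was 0.0626 in LP, beside 0.132 in Migrant with 8 pairs and 0.0775 with 6. SP, with 775 calls when fitted alone, had 0.132. Why the LP lists are longer was not tested.

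DPOGS213736 and DPOGS200090 had like values in LP, and genes that departed between the groups are given further below. DPOGS213736 had 7.55 to 10.1 FPKM (median 9.41) in LP females, against 0 in 7 LP male libraries and 0.0421 FPKM in the other. DPOGS200090 differed by 0.77 ± 0.03 in LP (SE, limma adjusted p 2e-06), beside 0.76 ± 0.06 in Migrant. DPOGS207001 was not called in LP, where it differed by -0.13 ± 0.06 (SE, limma adjusted p 0.155). It had 18.5 to 25.9 FPKM in LP females and 19.6 to 29.3 FPKM in LP males. The test of Migrant minus LP did not call it either (limma adjusted p 0.113). Scaffolds DPSCF300012 and DPSCF300068 differed by -0.13 ± 0.01 and -0.18 ± 0.03 in LP (SE, limma adjusted p 8.9e-05 and 0.00278), below all genes in 8 of 8 LP pairs each. By the same measure 35.2% of scaffolds were called in LP, 15.7% with females and 19.5% with males higher, and none of 293 in SP (138 below 0.05 before adjustment, lowest limma adjusted p 0.0642).

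**Figure D5:**
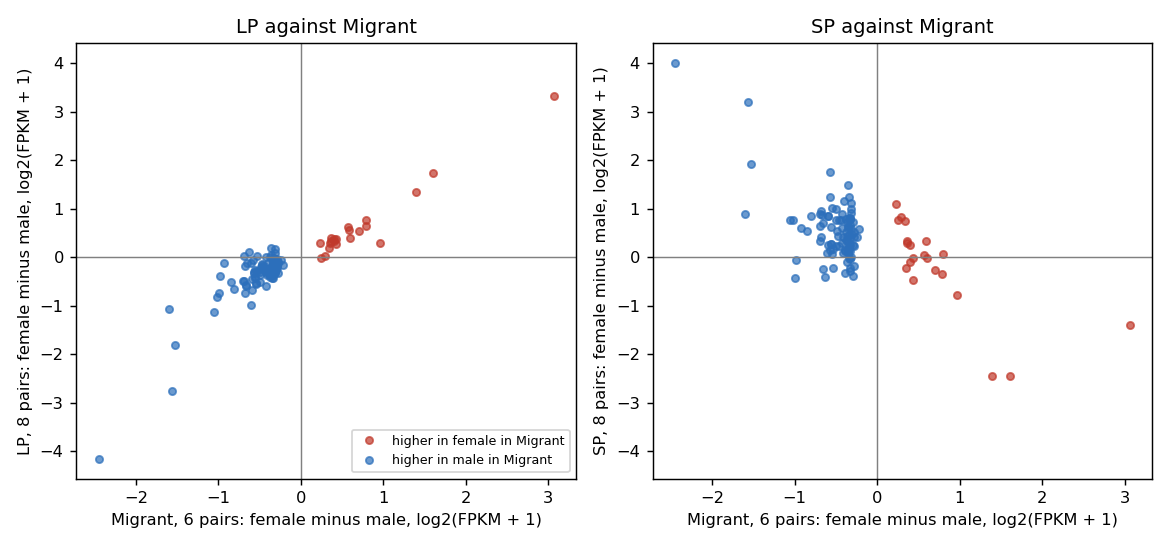
Female minus male difference in LP (left) and SP (right) against that in Migrant over 6 pairs, in log2(FPKM + 1), for the 117 genes called in Migrant; red genes were higher in Migrant females and blue ones in Migrant males. In LP, 20 of 21 and 88 of 96 keep their sign; in SP, 11 of 21 and 83 of 96 have the opposite sign.

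In a fit to all 48 libraries, the female minus male difference departed between Migrant and LP for 7 genes (0.0608%), 2 above 0 (0.0174%) and 5 below (0.0434%). The rule names 4 of them. DPOGS212555 was at 0 in every female library of both groups, and its male libraries had 2.67 to 6.40 FPKM in Migrant and 13.0 to 24.2 FPKM in LP (limma adjusted p of the departure 3e-06). DPOGS203943 had 1.23 to 3.12 FPKM in Migrant males and 4.85 to 6.77 FPKM in LP males, with at most 0.123 FPKM in any female library of either group (limma adjusted p 0.000108). It was not called under 1 of 4 alternative settings (limma adjusted p 0.260). For both, the labels differed in the same direction in Migrant and LP, and the male level was lower in Migrant.

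DPOGS203298 (DPSCF300003, 1206406 to 1207785) had 15.0 to 25.8 FPKM (median 19.4) in Migrant females and 16.2 to 25.3 FPKM (median 18.6) in Migrant males, with a difference of 0.03 ± 0.07 (SE, 8 pairs, limma adjusted p 0.946). In LP it had 22.7 to 27.9 FPKM (median 25.6) in females and 11.7 to 18.2 FPKM (median 14.1) in males. The groups overlapped in Migrant and not in LP, and the Migrant minus LP departure was -0.77 ± 0.11 (SE, limma adjusted p 0.00107). DPOGS204974 (DPSCF300123, 233962 to 235557) was at 0 in 7 of 8 Migrant libraries of each label, with 0.689 FPKM in the ZT1 female and 7.40 FPKM in the ZT10 male library, which stands apart. The gene met the minimum mean of 0.5 FPKM over the 16 Migrant libraries only through that ZT10 male value. It was therefore tested only because of that library. LP females had 2.91 to 5.64 FPKM and LP males 0 to 0.739 FPKM (limma adjusted p of the departure 0.0023). Without the ZT10 and ZT22 times, 16 genes departed, 2 above 0 and 14 below.

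The SP libraries gave the opposite picture under their labels. There the pools labelled male are replicate 1 and those labelled female replicate 2, the reverse of Migrant and LP. DPOGS213736 was at 0 in all 8 SP libraries labelled female, against 0.761 to 3.38 FPKM in all 8 labelled male. DPOGS212555 had 13.6 to 21.2 FPKM in the SP libraries labelled female, against 0 in 7 of 8 labelled male and 0.630 FPKM in the other. The other label-limited genes of Migrant were reversed too. DPOGS200003 had 3.54 to 7.95 FPKM in SP libraries labelled male and at most 0.497 FPKM in those labelled female. DPOGS211681 had 3.69 to 5.33 FPKM and at most 0.173 FPKM. DPOGS203388 had 0.211 to 2.27 FPKM in those labelled female and 0 in those labelled male. DPOGS203943 and DPOGS201355 were also higher in those labelled female. Of the 96 genes higher in Migrant males, 83 were higher in the SP libraries labelled female, where 67.1% of all genes were. Limma on SP alone made 775 calls (6.73%). It called 45 of these 83 higher in the libraries labelled female (5.29% of all genes) and none of the 96 higher in those labelled male (1.44%). Of the 21, 11 were higher in the libraries labelled male, where 32.5% of all genes were. Of those 21, 4 were called higher in the libraries labelled male and none in those labelled female. Whether the SP labels or the replicate numbers give the sex was not tested, so the SP libraries are described as labelled.

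By label, the female minus male difference departed between Migrant and SP for 3553 genes (30.9%), 349 above 0 (3.03%) and 3204 below (27.8%). With the SP libraries taken by replicate number in place of label, 1833 genes departed and most lay on the other side, 1278 above 0 and 555 below. By label, the split was 1134 above and 1275 below after median-ratio scaling, and the median difference over all genes was 0.16 in SP and -0.07 in Migrant. DPOGS200090, which separated the labels in Migrant and LP, had 234.8 to 508.3 FPKM (median 307.6) in SP libraries labelled female and 175.8 to 806.1 FPKM (median 336.5) in those labelled male. There it was lower than in Migrant, and the labels overlapped (difference 0.07 ± 0.33, SE, limma adjusted p 0.874).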

How the data were processed

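RNA was sequenced from 48 brain pools, and 16 Migrant libraries are reported. The deposited unit is FPKM per gene, made by the authors with CASAVA 1.8.2, TopHat2 and Cufflinks per the submitters' processing notes; the sources used here name no genome build. Gene positions are printed as deposited, and a start or end may be off by 1 base. Read numbers behind a gene were derived from the deposited FPKM confidence limits. Of such values under 30 reads, 83.9% came within 0.05 of a whole number, so no count test was run. Intervals and reads cover counting error only.

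Genes with a mean of 0.5 FPKM or more over the 16 libraries were kept (11513 of 15130). Tests used log2(FPKM + 1), which understates changes of low genes, in limma 3.58.1 (R 4.3.3, trend and robust) with time as a block and the label as the term, two-sided, Benjamini-Hochberg adjusted over all genes. The pairing by time comes from the labels; it does not say that paired pools share animals. LP, SP and 48-library fits used the same genes. Named genes were the 2 with the largest difference in each direction among called genes of mean 1 FPKM or more with 1 sign in every pair, and the 2 smallest adjusted p in each direction for differences between groups; others are marked as chosen after their values were seen. Members and lists were chosen with earlier results of these data known. The fit was tested on simulated data. Figures were drawn with matplotlib 3.10.9. Of the identifiers, 0 matched the RefSeq table.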

Additional observations from a re-analysis of the deposited data

Results flagged for a closer look

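Within each label, the library farthest from the rest was singled out by its gap to the nearest other library, a rule that chance meets in about 1 of 20 groups. The median correlation with the other Migrant libraries was 0.862 for the ZT22 female and 0.948 for the ZT10 male library. The SD over genes of the within-pair difference, 1.08 in the ZT22 pair, stood apart from the other pairs. The ZT22 female library also stood apart from the other 7 females for DPOGS213736 at 3.36 FPKM, for DPOGS207001 at 38.2 FPKM, for DPOGS207125 at 9.44 FPKM and for DPOGS203381 at 21.1 FPKM. DPOGS207001, DPOGS207125 and DPOGS203381 were named after their values were seen. DPOGS207125 and DPOGS203381 were called with the ZT10 and ZT22 pairs left out and not with all pairs. The flags of these named genes are therefore no separate support for the library standing apart. DPOGS213736 at 0.0397 FPKM in the ZT16 male library and DPOGS203388 at 0.0678 FPKM in the ZT7 female library stood apart from groups otherwise at 0. Each of these values rests on 1 read, which is enough to stand apart where the other libraries are at 0. The female minus male difference departed between Migrant and LP for 7 genes and between Migrant and SP, by label, for 3553 genes, each by a test of the difference itself (limma). The part of library quality, kit or labelling in these values was not tested.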

How the results depend on the processing

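With 8 pairs, the 14 calls became 7 with a minimum of 2 FPKM, 9 with median-ratio scaling, 7 with quantile normalization, 163 with library quality weights, 104 in the 48-library fit and 117 without ZT10 and ZT22. Leaving out 1 pair gave 7 to 116 calls. With 6 pairs, the 117 calls became 75 with no filter, 72 with median-ratio scaling, 54 with quantile normalization and 68 without the trend. Leaving out 1 pair gave 8 to 31. Without the pairing by time as a replicate block, 30 genes were called with 8 pairs and 255 with 6. Scaffold levels gave 1 call with 8 pairs at 5 or more genes a scaffold, and with 6 pairs 1 call for means over genes and 2 for gene-centred differences. Migrant minus LP gave 16 genes without ZT10 and ZT22 and 12 with LP and Migrant libraries alone. Migrant minus SP gave 987 genes with SP and Migrant libraries alone and 1833 (1278 above 0, 555 below) with SP libraries taken by replicate number, where 3 named departures reversed: DPOGS211681 to -0.91, DPOGS212555 to 1.67 and DPOGS203943 to 1.64. Their causes were not tested. DPOGS213736, DPOGS212555 and DPOGS201355 were called in every alternative that tested them, and no gene named for the female against male comparison changed direction in any. With 8 pairs, DPOGS212720 lost its call in 11 of 19 alternatives, DPOGS207001 in 9, DPOGS212719 and DPOGS203394 in 7 each, DPOGS211681 in 2 of 18 and DPOGS200090 in 1 of 19. With 6 pairs, DPOGS211681 lost it in 6 of 14, DPOGS203388 in 4, DPOGS203943 in 3 and DPOGS200003 in 2, each time when 1 more pair was left out (limma adjusted p up to 0.0694), DPOGS212719 and DPOGS203394 in 5 of 15 and DPOGS212720 in 4. Each label had 1 pool per time, and female-limited DPOGS200003 rests on few reads, which limits the precision of both. The light against dark and 24 h tests gave 0 calls in each alternative run.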

Other observations

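The ZT22 female library correlated best not with another female library but with the ZT1 male library, at 0.890, and its correlation with its own ZT22 male partner was 0.870. A best match across labels was not particular to this library. The ZT16 and ZT19 male libraries both correlated best with the ZT19 female library. The ZT22 female library had 297 of the deposited genes at 0 that passed the level filter, against 151 to 221 in the other 15 Migrant libraries.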
